A study of Mus musculus with 4 samples.

Results

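Eotaxins are chemokines that draw eosinophils into tissue, and the genes described here are 2 eotaxin genes (Ccl11 and Ccl24), the gene of their receptor (Ccr3) and 5 further genes used as marks of eosinophils (Il5ra, Siglecf, Alox15, Epx and Prg2). They make up 8 of the 48526 gene identifiers in the table. The genes were chosen by measured values of the same comparison, in which earlier results had Ccl11 higher and Ccr3 lower, so the differences between groups of the 8 genes are descriptions and carry no test.

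The RNA came from lamina propria mononuclear cells (LPMCs), the leukocyte-rich fraction of the connective tissue under the gut epithelium. All 4 samples came from mice given a transfer of CD4 cells. In 2 of them the donor CD4 cells were double knockout for Hobit and Blimp, a pair of transcriptional repressors known from tissue-resident lymphocytes, and colitis was labelled as mild. In the other 2 the donor CD4 cells were wild type, and colitis was labelled as pronounced. The groups are called DKO transfer and wild-type transfer below. The group names refer to the donor cells alone, since a sample also holds cells of the recipient. The strain, age, sex and genotype of the recipients, and how the deleted alleles were made, are not stated in the labels. The series text speaks of biological replicates but not of separate animals. Whether a sample is a single animal or a pool is therefore not known, nor what the spread between samples measures.

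Eosinophils arise in the bone marrow under interleukin 5 and settle in the healthy gut in large numbers. Eotaxin 1 (Ccl11) is made mainly by fibroblasts and other structural cells, and eotaxin 2 (Ccl24) mainly by macrophages. Both bind the receptor CCR3 on eosinophils. The type 2 cytokines interleukin 4 and interleukin 13 raise eotaxin transcription through the transcription factor STAT6. Neutrophils, which lack most of these marks, are the granulocytes of acute inflammation.

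The values are regularized log2 expression (rlog), in which a difference of 1 is a doubling and genes with few reads are pulled towards their own mean. The total reads per sample are unknown, and the median rlog over the 13528 genes with a mean of at least 4 lay between 8.33 and 8.35 in the 4 samples. Of the labelled cell type, the leukocyte gene Ptprc stood at 14.20 and 14.02 in the DKO transfer samples and at 14.22 and 14.26 in the wild-type transfer samples. The B cell receptor gene Cd79a lay between -0.32 and -0.29 in the 4 samples, far under the minimum. The myeloid integrin gene Itgam was the called gene among the 7 tested of that check, at 9.30 and 9.59 in the DKO transfer samples and at 10.30 and 10.26 in the wild-type transfer samples (-0.84, SE 0.0988, adjusted p = 0.00019 in limma, and adjusted p = 0.0747 with no minimum on the mean rlog). The epithelial gene Epcam lay between 10.75 and 11.05 in the 4 samples, so transcripts of the epithelium were present in both groups.

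RefSeq promoter sequence on GRCm38.p6 was matched for 4 of the 8 genes (Ccr3, Il5ra, Siglecf and Epx). Those of Ccr3 and Siglecf, the 2 of these 4 that could be read in the expression table, are shown as the 250 bases before the transcription start, 5′ to 3′ on the plus strand. Ccr3 lies at chr9:124021721-124021970 and Siglecf at chr7:43351091-43351340. Capitals mark the letters GATAA or their reverse complement TTATC, which hold the GATA core that GATA factors bind. GATA1 is the factor that specifies eosinophils. GATA followed by another letter, as in gatag in the Ccr3 window, was not searched for and is left in lower case.
Ccr3: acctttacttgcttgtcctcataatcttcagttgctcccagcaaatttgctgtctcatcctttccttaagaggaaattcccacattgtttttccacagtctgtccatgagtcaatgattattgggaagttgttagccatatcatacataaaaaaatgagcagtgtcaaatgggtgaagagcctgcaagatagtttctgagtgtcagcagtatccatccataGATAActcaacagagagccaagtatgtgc
Siglecf: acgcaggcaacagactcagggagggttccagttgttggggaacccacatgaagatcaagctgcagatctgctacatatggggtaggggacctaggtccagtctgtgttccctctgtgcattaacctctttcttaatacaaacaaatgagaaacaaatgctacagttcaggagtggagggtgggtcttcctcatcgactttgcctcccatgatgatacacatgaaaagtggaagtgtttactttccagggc

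The Ccr3 window held 1 match to GATAA, whose first base lay 29 bases before the start, and the Siglecf window held 0. The Il5ra window held 1 match, 73 bases before the start, and the Epx window held 0. Over all 32851 promoter windows of the same length, 22.6% held GATAA on either strand. A match describes letters and is not a site of binding.

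Of the 8 genes, 5 had a mean rlog of at least 4 and were readable, and 3 did not. The readable gene nearest to this minimum was Siglecf, with a mean of 4.50, and the nearest gene under it was Prg2, with a mean of 3.29. Among the 5 readable genes, both eotaxins were higher in the DKO transfer samples, and Ccr3, Siglecf and Alox15 were lower. The groups did not overlap in any of the 5, where 55.3% of all 13528 genes had groups that did not overlap (25.0% higher and 30.3% lower in DKO transfer). The contrast chose the genes, so nothing is read from that count. No annotated gene overlaps any of the 8 genes on either strand in GENCODE M21.

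**Figure D1:**
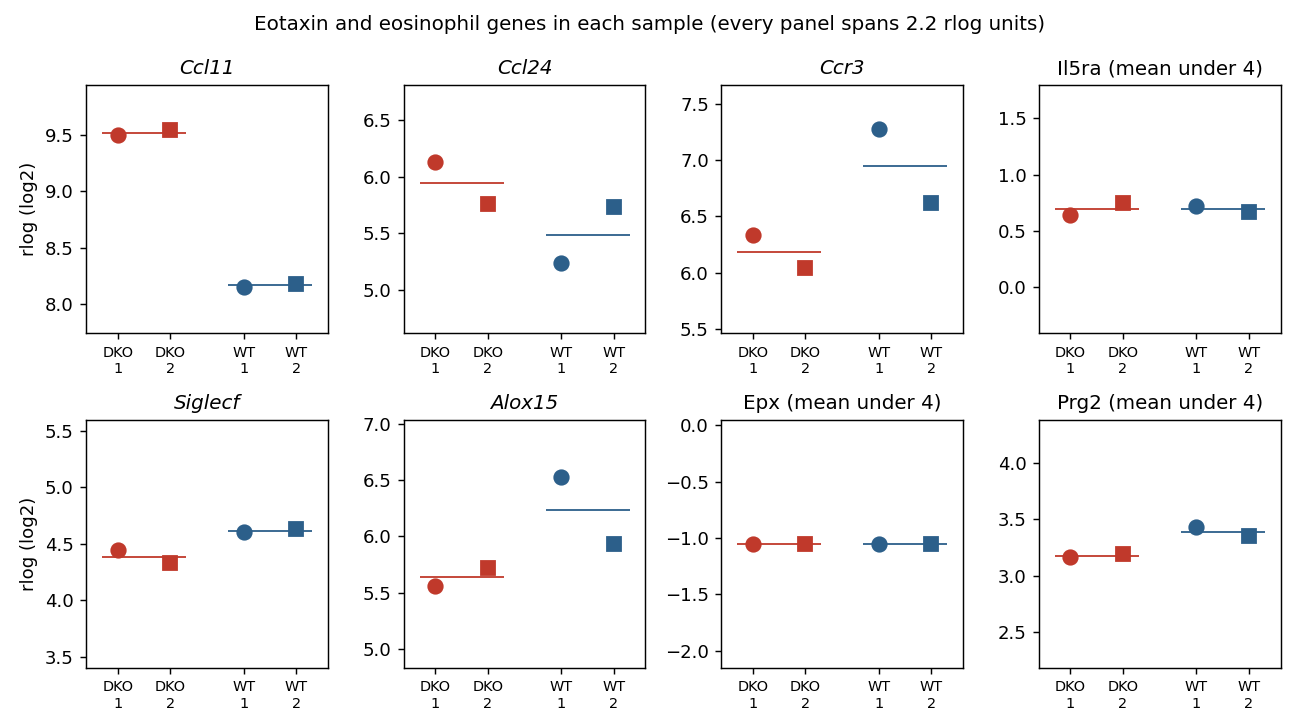
Regularized log2 expression (rlog, y axis) of the 8 genes in each sample (x axis), with DKO transfer in red and wild-type transfer (WT) in blue, circles for replicate 1, squares for replicate 2 and lines for group means. Every panel spans the same number of rlog units, so that Ccl11 shows the widest gap between groups, Ccr3 and Alox15 are highest in wild-type transfer replicate 1, and Il5ra and Epx show almost no spread.

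Ccl11 was the eotaxin with the clear separation of groups. Ccl11 (ENSMUSG00000020676, GRCm38 chromosome 11, 82057823 to 82062955, plus strand) stood at 9.50 and 9.54 in the DKO transfer samples, against 8.15 and 8.18 in the wild-type transfer samples. The samples of a group were 0.0446 apart in DKO transfer and 0.0351 apart in wild-type transfer, and both DKO samples lay above both wild-type samples. The means were 9.52 ± 0.0316 in DKO transfer and 8.17 ± 0.0248 in wild-type transfer (SD, n = 2 each), a difference of 1.36 and a fold of 2.56. Ordered from the highest difference, Ccl11 was at place 42 of the 13528 genes. The contrast chose the gene, so nothing is read from its place. The difference stayed between 1.33 and 1.38 whichever sample was left out.

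Ccl24 was less clearly apart. Ccl24 (ENSMUSG00000004814, chromosome 5, 135569937 to 135573049, minus strand) had values of 6.13 and 5.76 in the DKO transfer samples and 5.24 and 5.73 in the wild-type transfer samples. The lower DKO sample, DKO replicate 2, lay just above the higher wild-type sample, wild-type replicate 2. The replicate numbers do not pair samples across groups. The means were 5.95 ± 0.261 in DKO transfer and 5.48 ± 0.345 in wild-type transfer (SD, n = 2 each), a difference of 0.47. It was 0.22 without wild-type replicate 1, 0.71 without wild-type replicate 2, 0.28 without DKO replicate 1 and 0.65 without DKO replicate 2. The difference thus rests on wild-type replicate 1, in which Ccl24 was lowest, and on DKO replicate 1, in which it was highest. Between the 2 eotaxins, the within-sample difference of Ccl11 minus Ccl24 in rlog was 3.37 and 3.78 in the DKO transfer samples and 2.91 and 2.46 in the wild-type transfer samples.

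Genes of fibroblasts and smooth muscle moved in the same direction as Ccl11. Of the 12 genes of that list 11 rose and 0 fell in DKO transfer in limma, at a Benjamini-Hochberg adjusted p under 0.05, with a median difference of 0.90, and 3 rose with no minimum on the mean rlog. With a robust variance estimate 8 of the 12 rose. The smooth muscle genes Acta2 and Myh11, and Lum, lost their calls in that limma fit (adjusted p = 0.217, 0.202 and 0.197). Lum also lost its call in limma without the variance trend (adjusted p = 0.0616). Over all tested genes 9.92% rose and 4.85% fell, with a median of -0.02. Postn, a matrix protein of fibroblasts, rose by 1.73 (SE 0.0953, adjusted p = 5.67e-06), the collagens Col6a1 by 1.15 (SE 0.0914) and Col1a2 by 0.89 (SE 0.0916), and Pdgfra, a growth factor receptor of mesenchymal cells, by 1.07 (SE 0.116). Thy1, which T cells also carry, was the member that did not pass (-0.12, adjusted p = 0.525 in limma). The log2 of the summed level of the list was 16.14 and 16.01 in the DKO transfer samples and 15.33 and 15.24 in the wild-type transfer samples, and its part in the value of Ccl11 was not tested. Here and below, fewer cells of a type and less RNA per cell cannot be told apart.

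Resident macrophage genes, the list of the main known source of Ccl24, moved the other way. Of the 11 tested, 7 fell and 0 rose in limma, with a median of -0.37, and 0 fell in limma with no minimum on the mean rlog (7 had an unadjusted p under 0.05). The complement genes C1qb (-0.50, SE 0.0885, adjusted p = 0.00247), C1qc (-0.49, SE 0.101) and C1qa (-0.48, SE 0.0995) and the lysosomal glycoprotein gene Cd68 (-0.44, SE 0.0992) had the smallest p. The call of C1qa was lost without wild-type replicate 2 (adjusted p = 0.0542) and that of Cd68 without wild-type replicate 1 (adjusted p = 0.0685). Without wild-type replicate 1 only 3 of the 11 fell. The log2 of the summed level of the list was 14.18 and 14.40 in the DKO transfer samples and 14.75 and 14.72 in the wild-type transfer samples, while Ccl24 was the higher in DKO transfer.

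Ccr3, the eotaxin receptor, was lower in the DKO transfer samples. Ccr3 (ENSMUSG00000035448, chromosome 9, 124021972 to 124031689, plus strand) had values of 6.33 and 6.04 in the DKO transfer samples and 7.27 and 6.62 in the wild-type transfer samples. Wild-type replicate 1 stood apart, 0.651 above wild-type replicate 2, which itself lay above both DKO samples. The means were 6.19 ± 0.204 in DKO transfer and 6.94 ± 0.461 in wild-type transfer (SD, n = 2 each), a difference of -0.76 or a level 1.69-fold lower in DKO transfer. The difference was -0.43 without wild-type replicate 1 and -1.08 without wild-type replicate 2, and it was -0.90 and -0.61 without DKO replicate 1 and DKO replicate 2. Ordered from the lowest difference, Ccr3 was at place 67 of the 13528 genes, Alox15 at 138 and Siglecf at 1496. Ccl24 was at place 1069 from the highest. The contrast chose Ccr3, so nothing is read from its place.

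Ligand and receptor can be set against each other within a sample. Ccl11 minus Ccr3 in rlog was 3.17 and 3.50 in the DKO transfer samples and 0.88 and 1.56 in the wild-type transfer samples. The difference between the groups in this quantity was 2.11 on the log2 scale, which is the sum of 2 differences already given. Ccl24 minus Ccr3 was -0.20 and -0.28 in the DKO transfer samples and -2.03 and -0.89 in the wild-type transfer samples, with the lowest value in wild-type replicate 1, where Ccr3 was highest and Ccl24 lowest.

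Alox15 encodes the 12/15-lipoxygenase that eosinophils and some macrophages use to oxidize arachidonic acid. Alox15 (ENSMUSG00000018924, chromosome 11, 70344152 to 70352031, minus strand) stood at 5.56 and 5.72 in the DKO transfer samples and at 6.53 and 5.93 in the wild-type transfer samples. Wild-type replicate 1 was again the highest, 0.602 above wild-type replicate 2, and the groups did not overlap. The means were 5.64 ± 0.112 in DKO transfer and 6.23 ± 0.425 in wild-type transfer (SD, n = 2 each), a difference of -0.59. It was -0.29 without wild-type replicate 1 and -0.89 without wild-type replicate 2. Ccr3 minus Alox15 was 0.78 and 0.33 in the DKO transfer samples and 0.74 and 0.69 in the wild-type transfer samples, so that the 2 genes kept nearly the same distance in both wild-type samples although each moved by more than 0.6.

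Siglecf encodes an inhibitory receptor for sialic acids by which mouse eosinophils are commonly sorted, and which some macrophages and tuft cells also carry. Siglecf (ENSMUSG00000039013, chromosome 7, 43351341 to 43359531, plus strand) had values of 4.44 and 4.33 in the DKO transfer samples and 4.60 and 4.63 in the wild-type transfer samples. The wild-type samples were 0.0296 apart and the DKO samples 0.112 apart, and both DKO samples were the lower. The difference was -0.23, a level 1.17-fold lower in DKO transfer. Unlike Ccr3 and Alox15, Siglecf was not highest in wild-type replicate 1, and Ccr3 minus Siglecf was 1.89 and 1.71 in the DKO transfer samples and 2.67 and 1.99 in the wild-type transfer samples. All 4 values spanned 0.300, close to the median span of 0.324 over the 576 genes with a mean rlog within 0.25 of its own.

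None of the members from the eosinophil granule or the interleukin 5 receptor was readable. Their low values do not tell whether eosinophils were present. Epx, the eosinophil peroxidase (ENSMUSG00000052234, chromosome 11, 87864000 to 87875536), was at -1.05 in all 4 samples, with 0.00214 between the highest and the lowest. In total 17 genes of the table had the same 4 values to within 1e-06, so the row of Epx cannot be told from theirs. Il5ra, the binding chain of the interleukin 5 receptor (ENSMUSG00000005364, chromosome 6, 106710357 to 106749037), had values of 0.64 and 0.75 in the DKO transfer samples and 0.72 and 0.67 in the wild-type transfer samples, and the groups overlapped. Prg2, the major basic protein of the granule (ENSMUSG00000027073, chromosome 2, 84980461 to 84983632), stood at 3.17 and 3.19 in the DKO transfer samples and at 3.43 and 3.35 in the wild-type transfer samples. Prg2 lay lower in both DKO samples, but its span of 0.260 was near the median span of 0.224 over the 602 genes at its level. With these 3 genes too low to read, the label of eosinophil genes rests on Ccr3, Siglecf and Alox15, which other leukocytes can express, and a difference in eosinophil transcripts was not detectable in the granule genes.

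**Figure D2:**
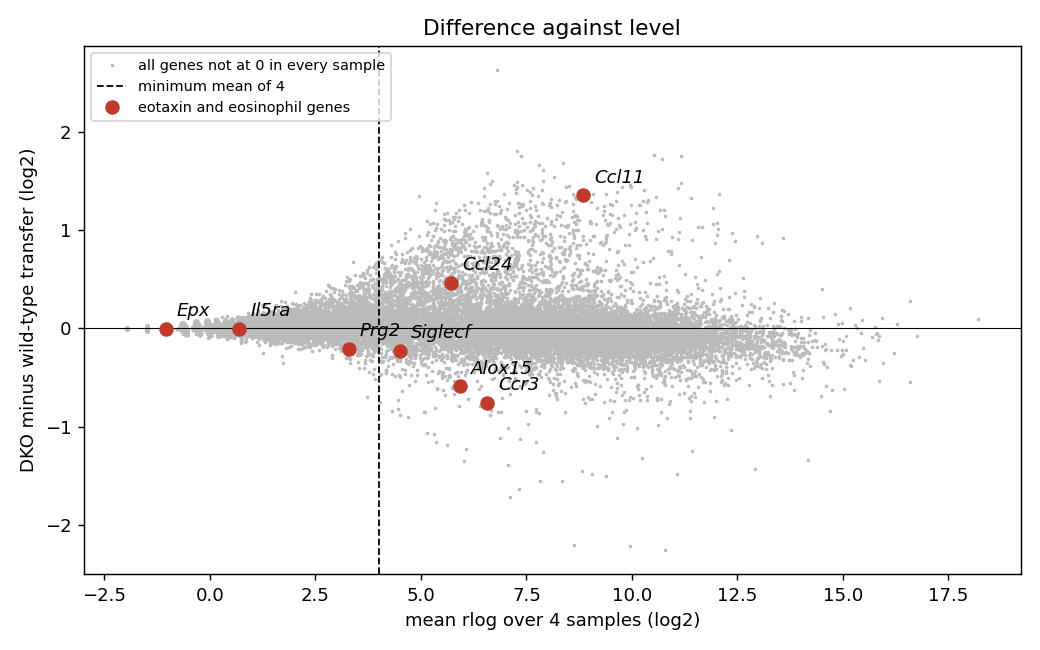
Difference in rlog, DKO transfer minus wild-type transfer (y axis, log2), against the mean rlog over the 4 samples (x axis), for each gene not at 0 in every sample (grey) and for the 8 genes (red), with the minimum mean of 4 as a dashed line. Ccl11 lies near the upper edge at a mean of 8.84, Ccr3 and Alox15 lie below the bulk, and Epx, Il5ra and Prg2 lie left of the line where all differences are drawn in towards 0.

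Most further eosinophil genes were low too, though the leukotriene receptor genes Cysltr1 and Cysltr2 had mean rlog values of 7.24 and 8.95. Of 11 other genes of the lineage, 3 reached the minimum, and 0 of these 3 passed in limma (1 had an unadjusted p under 0.05). That gene was Cebpe, a transcription factor of granulocyte maturation that neutrophil precursors also use, with values of 4.28 and 4.50 in the DKO transfer samples and 4.61 and 5.11 in the wild-type transfer samples (-0.47, SE 0.159, adjusted p = 0.0786). It passed without wild-type replicate 1 (-0.71, adjusted p = 0.00534), without DKO replicate 2 (-0.58, adjusted p = 0.00842) and with quantile normalization (-0.59, adjusted p = 0.0408). The leukotriene receptors Cysltr1 (-0.29, adjusted p = 0.196) and Cysltr2 (0.00, adjusted p = 0.986), which many leukocytes carry, were the other tested genes in limma, and Cysltr1 passed without DKO replicate 1 (-0.48, adjusted p = 0.0112). Among the unread genes, the granule gene Prg3 had a mean of -0.98 over the 4 samples, Gata1 between 1.48 and 1.55, the prostaglandin D2 receptor gene Ptgdr2 between 1.04 and 1.18, and Hrh4, the histamine H4 receptor, between 1.17 and 1.26. The eosinophil-associated ribonucleases are near-identical copies whose reads the counting may have split. Ear2, the highest of the 4 looked up, lay between 3.47 and 3.99, Ear6 between 1.73 and 1.94, Ear1 between -0.57 and -0.51, and Ear10 was listed at 0 in all 4 samples.

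Levels of different genes can be compared once exon length is taken out, here as rlog minus the log2 of the exon length in kilobases. On this scale Ccl11 was highest, at 9.39 and 9.43 in the DKO transfer samples and 8.03 and 8.07 in the wild-type transfer samples, apart from each other gene by more than the spread between samples. In DKO transfer the order then ran Ccl24 (mean 5.58), Ccr3 (4.48), Alox15 (4.34) and Siglecf (2.91). In wild-type transfer it ran Ccr3 (5.23), Ccl24 (5.11), Alox15 (4.93) and Siglecf (3.14). Ccl24 lay above Ccr3 in both DKO samples, at 5.76 and 5.39 against 4.62 and 4.33. In wild-type transfer the distance of Ccl24 from Ccr3 was -0.69 in replicate 1 and 0.44 in replicate 2, so their order was not fixed there. Ccr3 and Alox15 did not differ beyond their spread in DKO transfer, at 4.62 and 4.33 for Ccr3 and 4.26 and 4.42 for Alox15. In wild-type transfer their ranges overlapped too, at 5.56 and 4.91 for Ccr3 and 5.23 and 4.63 for Alox15. Siglecf was the lowest of the 5 in every sample.

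**Figure D3:**
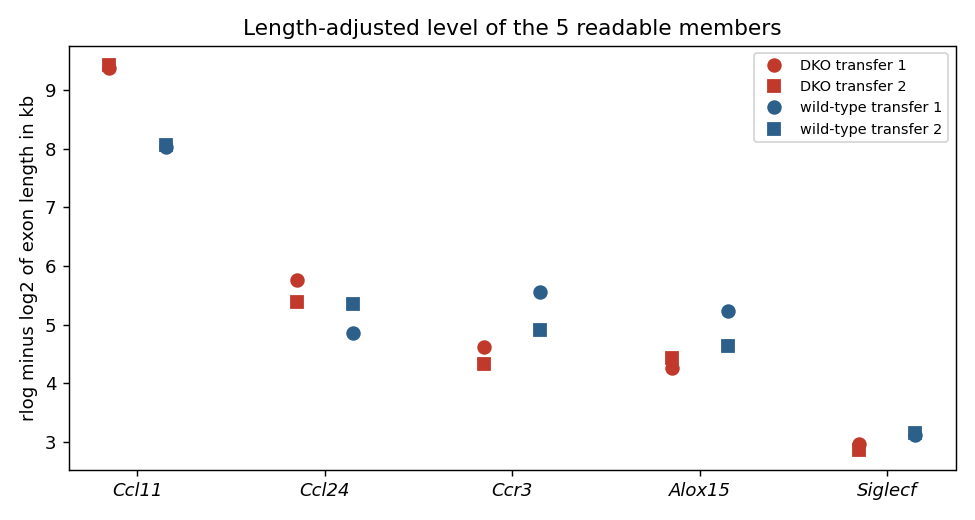
Length-adjusted level (y axis, rlog minus log2 of the exon length in kilobases) of the 5 readable genes (x axis), with the DKO transfer samples in red at the left and the wild-type transfer samples in blue at the right of each gene, circles for replicate 1 and squares for replicate 2. Ccl11 lies above the other genes in every sample, and the means of Ccl24 and Ccr3 change order between the groups.

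The other genes around the eotaxin axis were taken from 12 lists of related genes and cell types, with 113 genes of which 92 were tested. Of these, 20 rose and 31 fell in limma, where 9.92% and 4.85% of all tested genes did. With no minimum on the mean rlog 3 of them rose and 3 fell, so most calls in these lists hold only with the minimum. Eosinophil attractants other than the eotaxins did not move as one. Of the 3 other ligands of CCR3, Ccl7 rose (0.60, SE 0.152, adjusted p = 0.0211 in limma). The call was lost without wild-type replicate 1 (0.40, adjusted p = 0.0976) and with a robust variance estimate (adjusted p = 0.181). Ccl7 was at 9.34 and 9.79 in the DKO transfer samples and at 8.77 and 9.17 in the wild-type transfer samples. Ccl5, made by T cells, did not pass (-0.41, adjusted p = 0.155 in limma), with DKO replicate 1 at 12.80 and the other samples at 13.38 to 13.65. It was at -0.71 and passed without DKO replicate 2 (adjusted p = 2.19e-05). Ccl28, an epithelial chemokine, did not pass (-0.13, adjusted p = 0.598).

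Ccl11 lies in a cluster of chemokine genes on chromosome 11, and its neighbours had smaller differences. Of the 5 neighbours tested, 2 rose and 0 fell in limma, with a median of 0.35. Ccl2, the main attractant of monocytes, stood at 10.33 and 10.56 in the DKO transfer samples and at 9.68 and 9.94 in the wild-type transfer samples (0.63, SE 0.106, adjusted p = 0.00184), and Ccl7 rose as given above. Ccl12 (0.30, adjusted p = 0.105), Ccl1 (0.35, adjusted p = 0.113) and Ccl8 (-0.05, adjusted p = 0.772) did not pass in limma, but Ccl1 did without DKO replicate 2 (0.52, adjusted p = 0.00629). The differences of the 5 neighbours ran from -0.05 to 0.63, below the 1.36 of Ccl11.

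Among other CC chemokine receptors, 4 of the 9 tested fell and 0 rose in limma, with a median of -0.30. Without DKO replicate 1 there were 7 that fell, and without DKO replicate 2 there were 2. Ccr1, a receptor of neutrophils, monocytes and eosinophils whose gene lies on the same chromosome as Ccr3, fell to 11.61 and 11.55 in the DKO transfer samples, against 12.13 and 12.15 in the wild-type transfer samples (-0.56, SE 0.0803, adjusted p = 0.000689). Ccrl2, an atypical receptor that binds chemerin, fell by 0.51 (SE 0.108, adjusted p = 0.00798). The gut homing receptor Ccr9 fell by 0.43 (SE 0.107, adjusted p = 0.0191) and Ccr4, of skin-homing and type 2 T cells, fell by 0.29 (SE 0.085, adjusted p = 0.0415). The call of Ccr9 was lost when wild-type replicate 1 or DKO replicate 2 was left out (adjusted p = 0.118 and 0.0512). That of Ccr4 was lost when wild-type replicate 1, wild-type replicate 2 or DKO replicate 2 was left out (adjusted p = 0.207, 0.186 and 0.0757), and without the variance trend or with quantile normalization (adjusted p = 0.065 and 0.0503). Unlike Ccr3, Ccr1 differed by little between the wild-type samples, so that Ccr3 minus Ccr1 was -5.28 and -5.51 in the DKO transfer samples and -4.86 and -5.53 in the wild-type transfer samples, which overlap.

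Of the cytokines that feed the axis, Il5 rose. Il5, the cytokine that makes eosinophils mature and survive, stood at 7.24 and 6.79 in the DKO transfer samples and at 6.46 and 6.51 in the wild-type transfer samples (0.53, SE 0.144, adjusted p = 0.031 in limma). The call was lost when wild-type replicate 1, wild-type replicate 2 or DKO replicate 1 was left out (adjusted p = 0.0776, 0.0527 and 0.173). The difference was 0.30 without DKO replicate 1 and 0.42 with quantile normalization (adjusted p = 0.0843). It was the only call among 6 tested genes of IL-5, IL-3, GM-CSF and their receptor chains, whose median was -0.10. The shared signalling chains Csf2rb and Csf2rb2, close copies of each other, were at -0.18 each (adjusted p = 0.301 and 0.297), and the GM-CSF gene Csf2 was at 0.40 (adjusted p = 0.0901), passing without DKO replicate 2 (0.65, adjusted p = 4.44e-05).

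Of 10 tested genes of type 2 cytokines and receptors upstream of eotaxin transcription, 1 was higher and 1 lower, with a median of 0.00. Over all tested genes 9.92% were higher and 4.85% lower, so nothing is read from these counts. Il33, an alarmin stored in stromal and epithelial nuclei, rose to 8.74 and 8.83 in the DKO transfer samples, against 8.04 and 8.14 in the wild-type transfer samples (0.69, SE 0.0932, adjusted p = 0.000455 in limma). Il13ra1, a chain of the interleukin 13 receptor, fell by 0.28 (SE 0.0828, adjusted p = 0.0419), but lost its call when wild-type replicate 1, wild-type replicate 2 or DKO replicate 2 was left out (adjusted p = 0.161, 0.211 and 0.109), with quantile normalization (adjusted p = 0.104) and without the variance trend (adjusted p = 0.0879). Il4 (0.09, SE 0.147), Il13 (0.01, SE 0.146) and Stat6 (-0.02, SE 0.0844) did not pass (adjusted p = 0.753, 0.974 and 0.911 in limma). The interleukin 33 receptor gene Il1rl1 was at 0.38 (adjusted p = 0.114) and passed without wild-type replicate 2 (0.65, adjusted p = 0.00147) or DKO replicate 2 (0.48, adjusted p = 0.0104). Il17rb and Crlf2 likewise passed without DKO replicate 2 alone (0.92 and -0.39, adjusted p = 5.58e-06 and 0.00285). Il25, Il9 and Tslp were under the minimum.

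Some genes of the same families as Alox15 and Siglecf fell. Among other lipoxygenase pathway genes, 2 of 4 tested fell and 0 rose in limma. Alox5ap, which presents arachidonic acid to 5-lipoxygenase, fell to 10.42 and 10.34 in the DKO transfer samples, against 11.30 and 11.28 in the wild-type transfer samples (-0.91, SE 0.078, adjusted p = 3e-05), and Alox5, that lipoxygenase, fell by 0.72 (SE 0.134, adjusted p = 0.00345). Ltc4s, whose product makes the cysteinyl leukotrienes that eosinophils release, was at -0.23 (adjusted p = 0.403) and passed without DKO replicate 2 (-0.51, adjusted p = 0.00745). Of 7 other Siglec genes tested 4 fell and 0 rose, namely Cd33 (-0.75, SE 0.0826, adjusted p = 0.000129), Siglece of neutrophils and monocytes (-0.66, SE 0.104), Siglech of plasmacytoid dendritic cells (-0.78, SE 0.182) and Siglec1 of macrophages (-0.48, SE 0.112). The call of Siglec1 was lost without wild-type replicate 1 (adjusted p = 0.106) and that of Siglech with a robust variance estimate (adjusted p = 0.0523). Siglecg, of B cells, passed without DKO replicate 2 (0.47, adjusted p = 0.0309).

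**Figure D4:**
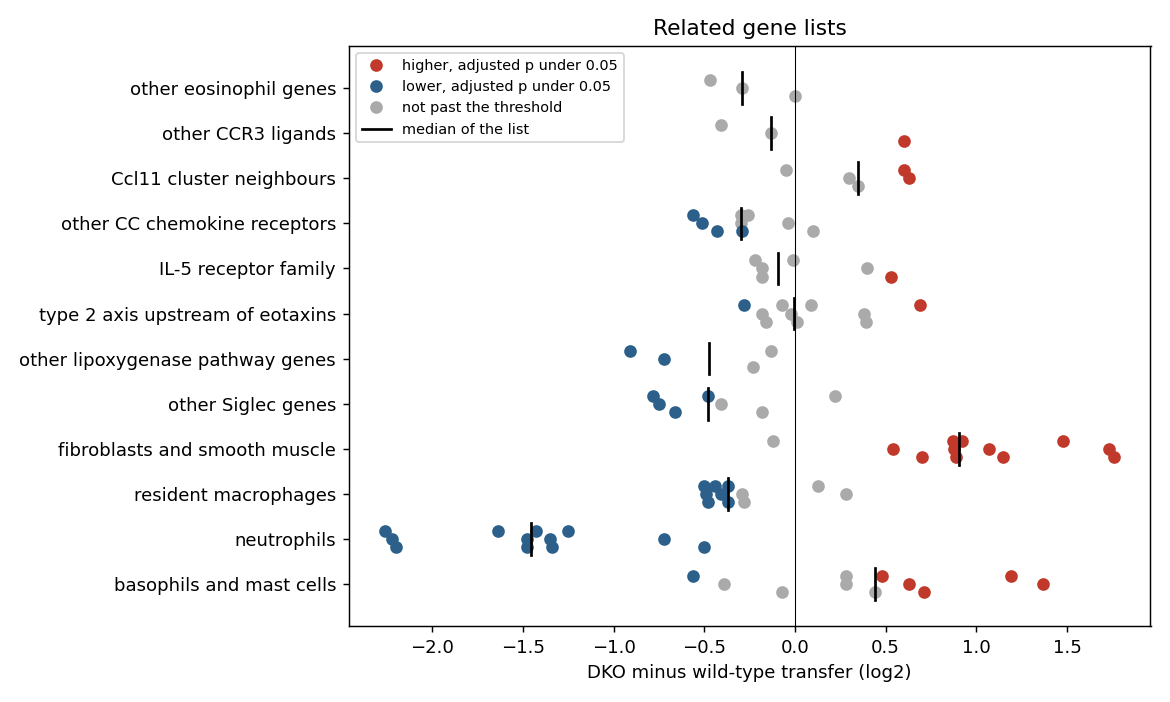
Difference in rlog, DKO transfer minus wild-type transfer (x axis, log2), of each tested gene of the 12 related lists (y axis), coloured by the limma call at an adjusted p under 0.05, with a black bar at the median of each list. Fibroblast and smooth muscle genes lie to the right with a median of 0.90, neutrophil genes to the left with a median of -1.46, and the type 2 list is centred at 0.

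Neutrophil genes were lower in DKO transfer, as Ccr3 and Alox15 were, while more basophil and mast cell genes rose than fell. All 12 neutrophil genes tested fell in limma, with a median of -1.46, and the log2 of their summed level was 14.76 and 14.29 in the DKO transfer samples and 15.86 and 15.95 in the wild-type transfer samples. The 4 with the smallest p were Lcn2 (-1.25), Ltf (-2.22), Ngp (-2.26) and S100a8 (-1.43), with adjusted p = 1.03e-05, 1.45e-05, 2.02e-05 and 0.000156. With a robust variance estimate 7 of the 12 fell, and with no minimum on the mean rlog only 1 did, which was Lcn2. Of the 12, 8 were lower in wild-type replicate 1 than in wild-type replicate 2, some by little (S100a9 at 14.84 and 14.86). The others, such as Mmp8 at 10.05 and 9.53, were higher there, as Ccr3 and Alox15 were. The share over all genes was not counted, so nothing is read from this order. Of 11 tested genes of basophils and mast cells, which can also carry CCR3, 5 rose and 1 fell, with a median of 0.44. With quantile normalization 3 rose and 2 fell, and with no minimum on the mean rlog 0 rose and 0 fell. Mcpt2 (1.37, SE 0.111) and Mcpt1 (1.19, SE 0.113), proteases of mast cells and close copies of each other, and the receptor gene Kit (0.71, SE 0.0922) had the smallest p among the rises, and Hdc, which makes histamine, fell by 0.56 (SE 0.0846). Mcpt8, the basophil protease, stood at 5.07 and 4.90 in the DKO transfer samples and at 5.30 and 5.45 in the wild-type transfer samples (-0.39, adjusted p = 0.0513). It passed with quantile normalization (-0.55, adjusted p = 0.00991), without DKO replicate 1 (-0.47, adjusted p = 0.0205), without the variance trend and with a robust estimate (adjusted p = 0.0341 and 0.038). The log2 of the summed level of that list was 13.10 and 13.00 in the DKO transfer samples and 13.04 and 12.92 in the wild-type transfer samples. Hdc, the highest gene of the list, was at 11.90 and 11.94 in the DKO transfer samples and at 12.53 and 12.43 in the wild-type transfer samples. The sum thus weighs Hdc most and does not show the rises given above. The part of neither list in the values of Ccr3 and Alox15 was tested.

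The genes with the profiles most like those of Ccl11 and Ccr3 were taken as the 3 with the smallest root mean square difference in rlog over the 4 samples, after each gene was centred on its own mean. For Ccl11 they were Dlc1, Shank3 and Igfbp5, at 0.0378, 0.0407 and 0.0416. Igfbp5, a binding protein of insulin-like growth factors, was at 11.80 and 11.79 in the DKO transfer samples and at 10.37 in both wild-type transfer samples. For Ccr3 they were Thbs1, Mrgpra2b and Slfn4, at 0.0778, 0.149 and 0.153. Thbs1, which encodes thrombospondin 1, was at 14.34 and 14.20 in the DKO transfer samples and at 15.38 and 14.84 in the wild-type transfer samples, with wild-type replicate 1 the highest as for Ccr3. The likeness rests on 4 samples and is a description.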

How the data were processed

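Stranded mRNA libraries of 2 samples per group were sequenced, per the labels' protocols, and the treatment label gave the groups. The table deposited by the authors holds log2 values, named rlog (the regularized log2 of DESeq2) in its title. The submitters' processing notes list build GRCm38, featureCounts of Subread 1.5.2, STAR 2.5.4a, BWA 0.7.14-r1136, cutadapt 1.9.1, bcl2fastq 2.17.1.14 and DESeq2, with no roles or settings. The annotation release and the strand setting of the counting were not given in the sources used here. A further 2 columns match no labelled sample and were not used, but may have entered the shrinkage. Read totals are unknown, so no interval from counts and no count test was made.

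Of 48526 identifiers, 48058 were matched to a symbol, a position and an exon length in GENCODE M21. Genes averaging at least 4 (13528) were fitted with limma 3.58.1 in R 4.3.3 by group alone, with a mean-variance trend, two-sided tests, Benjamini-Hochberg adjustment over all of them and a threshold of 0.05. The spread rests on 2 residual degrees of freedom beside 8.9 of the prior. Differences are DKO minus wild-type transfer. The code was tested on simulated data. Members and lists were chosen with earlier results of these data known. The text names the 8 members, up to 4 called genes of each list by smallest p and all genes of lists of at most 3. It also names the 3 genes with an established symbol most like Ccl11 and the 3 most like Ccr3. Other genes were named after their values were seen, as were the genes that did not pass or lay under the minimum. Alternatives were no minimum, a minimum of 6, no variance trend, a robust variance estimate, median centring, quantile normalization and leaving out each sample. Tables were made with pandas 2.3.3 and figures with matplotlib 3.10.9, in Python 3.11.15. A gene of the cell type check is not reported here.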

Additional observations from a re-analysis of the deposited data

How the results depend on the processing

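With no minimum on the mean rlog, 181 genes rose and 25 fell, against 1342 and 656 at a mean of at least 4, and in the related lists 3 rose and 3 fell, against 20 and 31. The cause was not tested. With a mean of at least 6, 878 genes rose, where fewer genes were tested. Without each sample in turn, the count of falls ranged from 324 to 1222, with 421 without wild-type replicate 1, 324 without wild-type replicate 2 and 1222 without DKO replicate 2, and such a fit takes the spread of the group left with 1 sample from the other group. The count of rises, and the total counts over the related lists, stayed within 1.5 times under the other alternatives run. The differences of Ccl11, Ccl24, Ccr3, Siglecf and Alox15 kept their sign under median centring, quantile normalization and leaving out each sample. That of Siglecf was -0.33 with quantile normalization, against -0.23. No paired analysis was possible because the labels give the samples no replicate numbers that groups share. Epx, Il5ra and Prg2 were too low to read, and since read totals are unknown the part of depth in this was not tested.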
